A study of Mus musculus with 4 samples.

Results

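The clustered histone genes were taken as every row of the deposited expression table whose name starts with Hist1h, Hist2h, Hist3h or Hist4, which gave 69 of the 24497 mouse rows. They hold 6 linker histone (H1) genes and 63 core histone genes, of which 19 encode H2A, 19 H2B, 12 H3 and 13 H4. By cluster, 55 carry the prefix Hist1, 10 Hist2, 3 Hist3 and 1 Hist4. Expression is in TPM, a transcript abundance that is corrected for length and scaled to 1 fixed total in each library.

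The study compared 2 libraries labelled Tet2 KO with 2 labelled WT, to ask which transcripts differ between acute myeloid leukaemia cells of these genotypes. The donor bone marrow stem cells came from Tet2-/- or wild-type mice, and the cells of both groups carry NRAS and AE9a as leukaemia drivers, AE9a being a short form of the AML1-ETO fusion. Per the labels, the culture medium held SCF, IL-3, IL-6, G418 and puromycin. Recipients of the transplanted cells were CD45.1+ NCI C57 B6.SJL mice, aged 6 to 8 weeks and lethally irradiated with 900 cGy, and CD45.2 cells were enriched from the spleen. The kit was KAPA Stranded mRNA-Seq, which selects RNA with a poly(A) tail. The labels give neither the Tet2 allele, nor the promoters that drive NRAS and AE9a, nor the number of leukaemia clones or mice behind a library, and p-values therefore measure only the spread between these libraries.

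Chromatin wraps DNA around octamers of the core histones H2A, H2B, H3 and H4, and linker histone H1 binds where DNA enters and leaves them. Most clustered histone genes are transcribed in S phase, when new DNA is packaged, and their mRNAs end in a short stem-loop in place of a poly(A) tail. The stem-loop is bound by SLBP, and the transcript is cut just after it by a machinery that contains the U7 snRNP. Some of these genes also give polyadenylated transcripts that run past the stem-loop, as described for differentiated cells, and a poly(A)-selecting kit recovers those in preference.

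The stem-loop was located first, because it bears on which transcripts the kit could capture. The motif, an arm GGCNCT followed directly by a loop TTTN and an arm AGNGCC on the transcript strand, was present in an annotated transcript (GENCODE, GRCm38) of 42 of the 69 members (60.9%), against 3 of 21810 other protein-coding genes (0.0138%), namely H2afx, H2bfm and Trim17. The form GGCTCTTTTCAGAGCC was shared by 26 members of the H1, H2A, H2B and H3 types. The form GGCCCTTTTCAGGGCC was found in 7 H4 genes. The sites below belong to the members on which the results turn, read 5′ to 3′ on the transcript strand, with the stem-loop in capitals.
Hist1h1c: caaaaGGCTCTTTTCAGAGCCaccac
Hist1h2ap: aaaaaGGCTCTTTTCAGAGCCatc
Hist2h2aa1: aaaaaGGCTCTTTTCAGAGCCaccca
Hist3h2a: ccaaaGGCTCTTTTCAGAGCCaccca
Hist3h2ba: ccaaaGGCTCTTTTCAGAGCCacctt
Hist1h4i: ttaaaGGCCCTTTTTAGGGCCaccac
Hist1h4m: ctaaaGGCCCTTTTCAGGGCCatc
On GRCm38 these sites lie at chr13:23739507-23739532, chr13:21833026-21833049, chr3:96246027-96246052, chr11:58955167-58955192, chr11:58949344-58949369, chr13:22040961-22040986 and chr13:21812124-21812147, on the plus strand except for Hist1h2ap and Hist1h4i. The annotated transcript continued for 3 nt after the stem-loop in Hist1h2ap and in Hist1h4m, and for 35 nt in Hist2h2aa1. It continued for 169 nt in Hist3h2ba, 330 nt in Hist1h4i, 840 nt in Hist1h1c and 1643 nt in Hist3h2a. The polyadenylation signal AATAAA lay in the last 50 nt of an annotated transcript of 15 members (21.7%), against 65.9% of other coding genes, and Hist1h1c, Hist3h2a and Hist3h2ba were among the 15. No match says only that these letters were not in the annotated transcript.

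Upstream sequence also separated the histone types. RefSeq (GRCm38.p6) gave the 250 nt before the start of 62 members and of 26963 other genes, searched on both strands. CCAAT was present upstream of 51 of the 62 members (82.3%), against 34.4% of other genes, and TATAAA upstream of 46.8%, against 12.9%. CCAAT was found in all 6 H1, 18 H2A and 16 H2B promoters, but in 8 of 10 H3 and 3 of 12 H4 promoters. The octamer ATTTGCAT, a site for POU factors known from H2B promoters, was found in 13 members (21.0%), all of them H2A or H2B genes, against 1.57% of other genes. The H1 box AAACACA stood upstream of 5 of 6 H1 genes, against 6.20% of other genes. A match is a description of the letters and not evidence of binding. The upstream sequences of the most abundant H1 gene, of the H2A genes with the highest mean TPM in the Hist1 and Hist2 clusters, and of the H2A gene of the Hist3 cluster show these motifs in capitals on either strand, 5′ to 3′ towards the gene.
Hist1h1c: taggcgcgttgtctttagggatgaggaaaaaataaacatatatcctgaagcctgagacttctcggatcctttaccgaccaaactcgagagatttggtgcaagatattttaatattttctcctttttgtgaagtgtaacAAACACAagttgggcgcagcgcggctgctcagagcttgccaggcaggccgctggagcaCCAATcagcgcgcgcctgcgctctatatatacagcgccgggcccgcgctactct
Hist1h2ap: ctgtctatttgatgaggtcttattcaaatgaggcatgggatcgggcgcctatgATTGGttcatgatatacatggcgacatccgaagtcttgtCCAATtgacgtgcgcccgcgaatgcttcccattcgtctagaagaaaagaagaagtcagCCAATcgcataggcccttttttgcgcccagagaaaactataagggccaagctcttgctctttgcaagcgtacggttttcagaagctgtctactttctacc
Hist2h2aa1: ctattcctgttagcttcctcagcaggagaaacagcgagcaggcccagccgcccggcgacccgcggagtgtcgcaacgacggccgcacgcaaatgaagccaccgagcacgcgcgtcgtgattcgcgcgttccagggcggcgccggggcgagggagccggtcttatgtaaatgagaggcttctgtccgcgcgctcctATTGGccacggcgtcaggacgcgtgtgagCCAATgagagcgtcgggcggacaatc
Hist3h2a: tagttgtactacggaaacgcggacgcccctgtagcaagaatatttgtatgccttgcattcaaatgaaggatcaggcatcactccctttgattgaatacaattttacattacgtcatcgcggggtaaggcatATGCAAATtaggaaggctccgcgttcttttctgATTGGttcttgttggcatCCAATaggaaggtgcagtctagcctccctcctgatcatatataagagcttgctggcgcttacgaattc
They lie at chr13:23738557-23738806, chr13:21833476-21833725 (minus strand), chr3:96245247-96245496 and chr11:58954435-58954684 on GRCm38. All 4 contain CCAAT. Of these 4, Hist1h1c alone holds the H1 box and Hist3h2a alone the octamer.

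Some library-wide values differed between the labels and precede the histone results. Tet2, the targeted gene, was at 63.7 and 68.1 TPM in the Tet2 KO-labelled libraries, against 43.5 and 43.7 TPM in WT, a log2 difference of 0.58 ± 0.19 (SE, limma adjusted p = 0.0170), which did not pass the test under limma's plain variance model. A gene-level TPM cannot show whether an exon was removed, so all directions rest on the labels. ERCC spike-in RNAs made up 2.95% and 3.19% of TPM in the Tet2 KO-labelled libraries, against 4.66% and 4.62% in WT. Xist stood at 86.1 and 28.2 TPM in the Tet2 KO-labelled libraries, against 0.34 and 0.34 TPM in WT. Replicates labelled Tet2 KO varied 8.51 times as much as read sampling alone would give (4845 genes, robust variance ratio), and WT replicates 1.17 times (4635 genes). For this reason the WT pair entered each test as 1 averaged sample, beside 2 samples labelled Tet2 KO. The ratios cover genes of at least 600 nt with over 20 reads in the pair, and not the many members with fewer reads. The libraries reached 1 TPM in 11300 to 11467 genes. Depth was approximate, and 1 read on a transcript of 500 nt was worth about 0.26 and 0.26 TPM in the Tet2 KO-labelled libraries and about 0.30 and 0.34 TPM in WT.

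Markers of cell types differed as well. Ptprc (CD45), which marks the enriched leukocytes, was at 413 and 396 TPM in the Tet2 KO-labelled libraries, against 292 and 296 TPM in WT, and was not called. For each marker list the share of all genes was 22.3% higher and 26.7% lower. Of 9 myeloid markers 5 were higher and 2 lower, and all 9 were detected. They summed to 9948 and 8295 TPM in the Tet2 KO-labelled libraries, against 5062 and 5058 TPM in WT. Lyz2 alone was at 5994 and 5105 TPM in the Tet2 KO-labelled libraries, against 2347 and 2374 TPM in WT. The 2 lower were Csf1r (170 and 142 TPM, against 721 and 730 TPM in WT, log2 difference -2.22) and Cd68 (-0.85). Of 9 neutrophil markers all were tested and 8 were higher, with summed levels of 96496 and 75998 TPM in the Tet2 KO-labelled libraries, against 1536 and 1569 TPM in WT. Of 9 erythroid markers 3 were tested and 2 were higher, with sums of 25.4 and 47.8 TPM in the Tet2 KO-labelled libraries, against 4.10 and 2.44 TPM in WT. The erythroid transcription factor gene Klf1 was at 0.12 and 0.06 TPM in the Tet2 KO-labelled libraries, against 0.20 and 0.07 TPM in WT, and Hbb-bs was listed at 0 in all 4 libraries. Of 6 T cell markers, 3 were tested and 0 were called, with sums of 3.01 and 6.96 TPM in the Tet2 KO-labelled libraries, against 4.58 and 3.96 TPM in WT. Of 5 B cell markers, 2 were tested, 1 higher and 1 lower, with sums of 6.21 and 4.05 TPM in the Tet2 KO-labelled libraries, against 9.31 and 8.40 TPM in WT. Their part in the histone differences was not tested, and more histone RNA per cell cannot be told apart from more cells that contain it.

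Core histone transcripts summed to a 2.17-fold higher level in the Tet2 KO-labelled libraries, while the linker histone sums overlapped between the groups on the TPM scale. All members together summed to 591 and 919 TPM in the Tet2 KO-labelled libraries, against 397 and 401 TPM in WT. The core genes summed to 506 and 799 TPM in the Tet2 KO-labelled libraries, against 299 and 303 TPM in WT, a log2 ratio of 1.11. H1 genes summed to 85.1 and 119 TPM in the Tet2 KO-labelled libraries, against 98.2 and 97.9 TPM in WT, a log2 ratio of 0.06, and the WT values lay between the others. With libraries scaled to their ERCC sums the H1 values no longer overlapped, at 111 and 144 in the Tet2 KO-labelled libraries, against 81.2 and 81.6 in WT (log2 ratio 0.65, and 1.70 for the core sum). Sums over members carry no test. Among the core types, H2A summed to 251 and 367 TPM in the Tet2 KO-labelled libraries, against 126 and 131 TPM in WT (log2 ratio 1.26). H2B summed to 166 and 299 TPM in the Tet2 KO-labelled libraries, against 121 and 124 TPM in WT (0.92). H3 summed to 29.1 and 40.0 TPM, against 16.9 and 12.9 TPM in WT (1.21), and H4 to 59.7 and 92.5 TPM, against 34.7 and 35.1 TPM in WT (1.13). For each core type both libraries labelled Tet2 KO stood above both WT libraries. H3 was the least abundant type in this poly(A)-selected RNA.

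**Figure D1:**
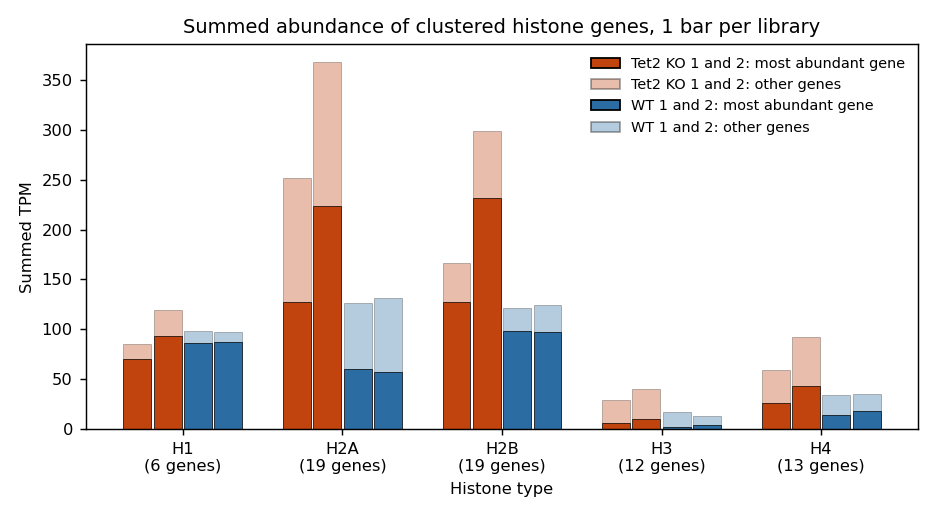
Summed TPM (y axis) of the clustered histone genes of each type in the 4 libraries (bars), the Tet2 KO-labelled libraries left of WT, with the most abundant gene of each type in the darker lower section. The H1 sums of both WT libraries (98.2 and 97.9 TPM) fall between those of the Tet2 KO-labelled libraries (85.1 and 119 TPM), whereas the 4 core types are higher in both libraries labelled Tet2 KO.

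The summed levels of the clusters differed in direction. Hist1 genes (chromosome 13) summed to 466 and 781 TPM in the Tet2 KO-labelled libraries, against 327 and 323 TPM in WT. Hist2 genes (chromosome 3) summed to 114 and 122 TPM in the Tet2 KO-labelled libraries, against 40.1 and 42.1 TPM in WT. Hist3 genes (chromosome 11) summed to 10.9 and 15.9 TPM in the Tet2 KO-labelled libraries, against 30.4 and 36.1 TPM in WT. The Hist3 sum was thus lower in both libraries labelled Tet2 KO than in either WT library, the opposite order to that of Hist1 and Hist2, and these orders were the same with ERCC scaling. Hist3h2a alone supplied 87.1% to 96.0% of the Hist3 sum across the libraries, and Hist2h2aa1 63.3% to 78.1% of the Hist2 sum. The single Hist4 gene, Hist4h4, did not exceed 0.28 TPM in any library.

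Differences of single genes were tested with limma on log2(TPM + 1), a scale that understates the change of low genes, with Benjamini-Hochberg adjustment over 11919 genes that reached 1 TPM in at least 2 libraries. Of the 69 members 50 passed this filter. Among the 50, 24 were higher and 2 lower in the Tet2 KO-labelled libraries at an adjusted p under 0.05, beside a background of 22.3% of all genes higher and 26.7% lower. Counts of all 69 members by position gave 35 with both libraries labelled Tet2 KO above both WT libraries, 5 with both below, and 29 that overlapped. Of the 50 tested members 33 were above and 3 below, beside 38.4% and 48.7% of all genes. The median log2 difference was 0.99 over the tested members and -0.11 over all genes tested. With libraries scaled to their ERCC sums, the median of all genes moved to 0.44 and that of the members to 1.35, so that the members exceeded it by 0.91, against 1.10 without that scaling. Under this scaling 76.9% of all calls were higher, against 45.6% without it. The filter favours high members, since 10 of the 50 passed only through the Tet2 KO-labelled libraries and 1, Hist1h4a, only through WT. Among the 39 others 16 were higher and 2 lower, with a median of 0.71. With both WT libraries as samples and 1 library labelled Tet2 KO left out, all spread comes from the WT pair and the lone library is assumed to vary likewise. Without Tet2 KO replicate 2 in such a fit 21 members were higher and 7 lower, and of all genes 3974 were higher and 5674 lower, against 2662 and 3177. Without replicate 1 the members' counts were 31 and 3, and those of all genes 4321 and 4987. In these fits 15 of the 24 members not called gained a call, and 7 of the 26 called members lost it.

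**Figure D2:**
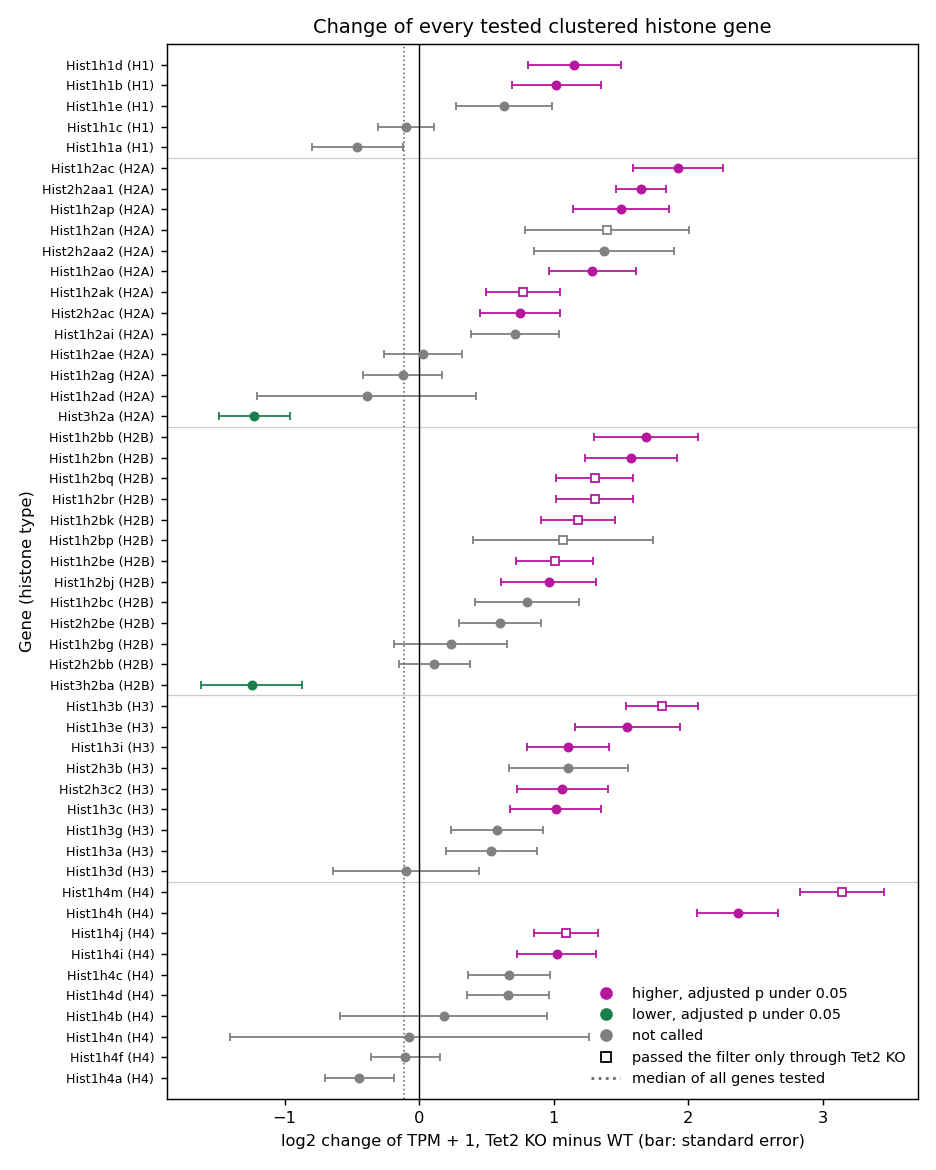
Log2 difference (Tet2 KO minus WT, log2(TPM + 1) scale, x axis) of the 50 tested members by histone type, with SE from limma as bars, called members in colour and open squares for members that passed the filter only through the Tet2 KO-labelled libraries. Most points lie to the right of the median of all genes at -0.11 (dotted line), and the lowest are the Hist3 genes Hist3h2ba and Hist3h2a at -1.24 and -1.23.

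Among the linker histones the dominant gene and the lesser ones behaved differently. Hist1h1c encodes H1.2, and it alone supplied 83.3% and 78.0% of the H1 sum in the Tet2 KO-labelled libraries, against 87.9% and 89.6% in WT. Hist1h1c was at 70.9 and 93.1 TPM in the Tet2 KO-labelled libraries, against 86.2 and 87.7 TPM in WT, with a log2 difference of -0.10 ± 0.21 (adjusted p = 0.728). The WT values fell between those of the Tet2 KO-labelled libraries, and the sign turned with ERCC scaling (0.49). Without replicate 2 labelled Tet2 KO its difference was -0.29 and without replicate 1 it was 0.10, both called with both WT libraries as samples. Hist1h1e, which encodes H1.4, was at 5.81 and 10.9 TPM in the Tet2 KO-labelled libraries, against 4.55 and 5.07 TPM in WT (0.63 ± 0.36, adjusted p = 0.165). Its groups did not overlap, but the difference did not pass the test. Hist1h1d, which encodes H1.3, was at 4.41 and 7.79 TPM in the Tet2 KO-labelled libraries, against 2.31 and 1.90 TPM in WT, and rose by 1.15 ± 0.35 (adjusted p = 0.0133). Hist1h1b, which encodes H1.5, was at 3.22 and 5.55 TPM in the Tet2 KO-labelled libraries, against 1.88 and 1.33 TPM in WT, and rose by 1.02 ± 0.33 (adjusted p = 0.0202). Both calls were lost with quantile normalization. Hist1h1a overlapped between groups (-0.46), and the testis gene Hist1h1t did not reach the filter, its highest value being 0.44 TPM. Of 5 tested H1 genes 2 were thus higher and 0 lower, with a median of 0.63, beside 22.3% of all genes higher and 26.7% lower. Without Hist1h1c the log2 ratio of the H1 sum was 0.87.

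The H2A difference lay mainly in a Hist1 and a Hist2 gene. Hist1h2ap (chr13:21833026-21833507, minus strand) was at 127 and 224 TPM in the Tet2 KO-labelled libraries, against 60.6 and 57.3 TPM in WT, with a log2 difference of 1.50 ± 0.36 (adjusted p = 0.0183), a call lost with quantile normalization. It supplied 50.6% and 60.9% of the H2A sum in the Tet2 KO-labelled libraries, against 48.0% and 43.6% in WT. Hist2h2aa1 (chr3:96245497-96246082, plus strand) was at 88.9 and 87.5 TPM in the Tet2 KO-labelled libraries, against 25.4 and 29.7 TPM in WT, with a log2 difference of 1.65 ± 0.19 (adjusted p = 2.54e-06). The replicates labelled Tet2 KO were close to each other, and both stood above both WT libraries. Hist1h2ac was at 5.41 and 8.63 TPM in the Tet2 KO-labelled libraries, against 1.18 and 0.96 TPM in WT (1.93 ± 0.33, adjusted p = 0.000239). Hist1h2ao (1.29), Hist1h2ak (0.77) and Hist2h2ac (0.75) were also higher. The calls for Hist1h2ak and Hist2h2ac were lost with quantile normalization and with the plain variance model. That for Hist2h2ac was also lost without WT replicate 1 (0.40) and without either library labelled Tet2 KO. In the other direction, Hist3h2a was at 10.5 and 13.8 TPM in the Tet2 KO-labelled libraries, against 26.6 and 32.7 TPM in WT, and fell by 1.23 ± 0.26 (log2 difference -1.23, adjusted p = 0.00122). It was still called with ERCC scaling, at -0.66. It was the third most abundant H2A gene by mean TPM. Hist2h2aa2 (1.38), Hist1h2an (1.40), Hist1h2ai (0.71), Hist1h2ae (0.03), Hist1h2ag (-0.12) and Hist1h2ad (-0.39) did not pass the test. Of 13 tested H2A genes 6 were higher and 1 lower, with a median of 0.77. Without those that passed the filter only through the Tet2 KO-labelled libraries, 5 of 11 were higher and 1 lower. The shares of all genes were 22.3% higher and 26.7% lower.

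Among H2B genes the most abundant one was not called. Hist1h2bc supplied 76.5% and 77.3% of the H2B sum in the Tet2 KO-labelled libraries, against 80.7% and 78.6% in WT. It was at 127 and 231 TPM in the Tet2 KO-labelled libraries, against 97.9 and 97.5 TPM in WT, a log2 difference of 0.80 ± 0.39 (adjusted p = 0.152). Both libraries labelled Tet2 KO were above WT, but they differed from each other by more than the first of them differed from WT. With both WT libraries as samples and either library labelled Tet2 KO left out, the difference was called (1.23 without replicate 1 and 0.37 without replicate 2). Hist1h2bj was at 7.01 and 12.8 TPM in the Tet2 KO-labelled libraries, against 2.97 and 6.29 TPM in WT (0.96 ± 0.35, adjusted p = 0.0384). That call was lost without WT replicate 1 (0.53), without replicate 2 labelled Tet2 KO (0.57) and without replicate 1 labelled Tet2 KO (1.35). Hist1h2bb was at 4.39 and 9.15 TPM in the Tet2 KO-labelled libraries, against 1.22 and 1.38 TPM in WT (1.69 ± 0.39, adjusted p = 0.00393). Hist1h2bg, at 3.83 and 8.91 TPM in the Tet2 KO-labelled libraries and 5.28 and 4.51 TPM in WT, overlapped between groups (0.23, adjusted p = 0.676). Hist2h2be was at 6.37 and 6.92 TPM in the Tet2 KO-labelled libraries, against 4.04 and 4.04 TPM in WT (0.60 ± 0.30, adjusted p = 0.116). Its status depended on the setting, since it was called with both WT libraries as samples and with ERCC scaling. Hist1h2bn (1.58), Hist1h2bq and Hist1h2br (1.31 each), Hist1h2bk (1.18) and Hist1h2be (1.01) were higher. The call for Hist1h2be was lost with quantile normalization. Hist1h2bp (1.07) and Hist2h2bb (0.11) did not pass the test. Hist3h2ba was at 0.43 and 1.71 TPM in the Tet2 KO-labelled libraries, against 3.87 and 3.47 TPM in WT, and fell by 1.24 ± 0.38 (log2 difference -1.24, adjusted p = 0.0223). The call for Hist3h2ba was lost with ERCC scaling (-0.89), a pseudocount of 0.1 and quantile normalization, and its difference was -0.78 without replicate 1 labelled Tet2 KO. Of 13 tested H2B genes 7 were higher and 1 lower, with a median of 1.01. Of the 7, Hist1h2be, Hist1h2bk, Hist1h2bq and Hist1h2br passed the filter only through the Tet2 KO-labelled libraries. Without members of that kind 3 of 8 were higher and 1 lower, beside 22.3% and 26.7% of all genes.

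**Figure D3:**
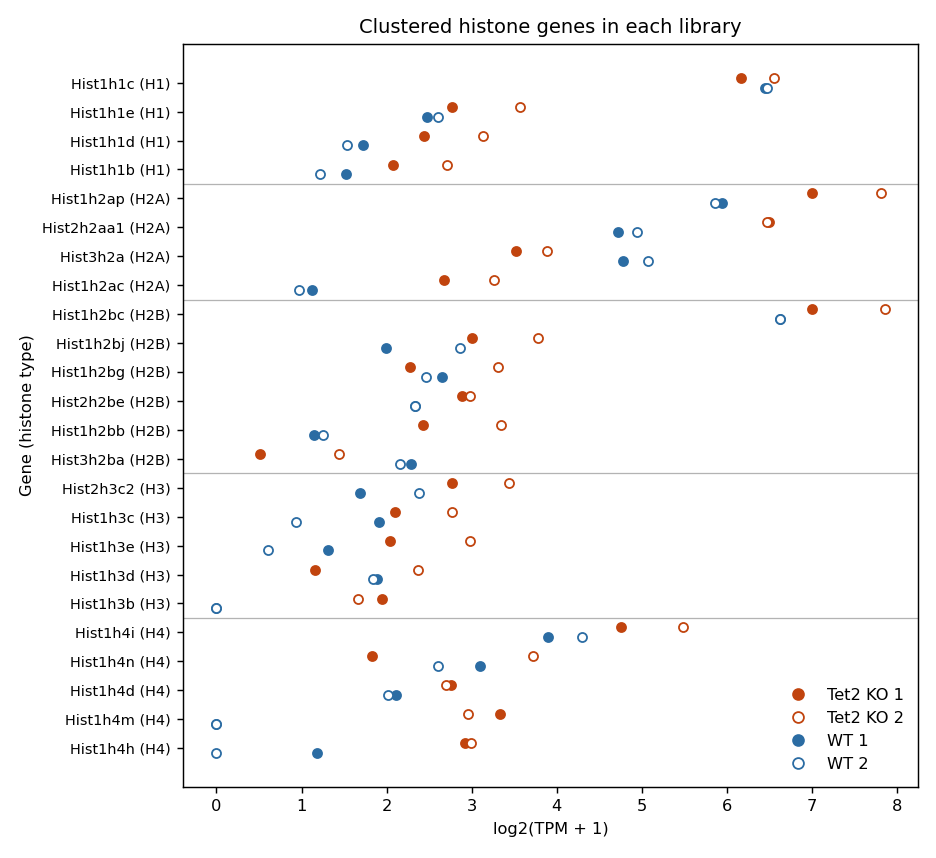
Expression on the log2(TPM + 1) scale (x axis) of the members described with values in each library, with the Tet2 KO-labelled libraries in orange above WT in blue, replicate 1 filled and replicate 2 open. Hist2h2aa1 and Hist1h2ap are higher in both libraries labelled Tet2 KO, Hist1h1c overlaps, and Hist3h2a is lower in both.

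The H3 genes were low, and 5 of the 9 tested were higher in the Tet2 KO-labelled libraries. Hist2h3c2 was at 5.81 and 9.83 TPM in the Tet2 KO-labelled libraries, against 2.23 and 4.22 TPM in WT (1.06 ± 0.34, adjusted p = 0.0182). Its groups did not overlap, but the call was lost without WT replicate 1 (0.72) and without replicate 2 labelled Tet2 KO (0.73). Hist1h3e was at 3.10 and 6.91 TPM in the Tet2 KO-labelled libraries, against 1.49 and 0.52 TPM in WT (1.55 ± 0.39, adjusted p = 0.00757). The Hist1h3e call was lost with quantile normalization. Hist1h3c was at 3.29 and 5.82 TPM in the Tet2 KO-labelled libraries, against 2.75 and 0.91 TPM in WT (1.02 ± 0.34, adjusted p = 0.0226). Its call was lost without WT replicate 2 (0.53) and without either library labelled Tet2 KO. Hist1h3d was at 1.24 and 4.18 TPM in the Tet2 KO-labelled libraries, against 2.70 and 2.59 TPM in WT, and overlapped (-0.10 ± 0.54, adjusted p = 0.901). Hist1h3b was at 2.86 and 2.17 TPM in the Tet2 KO-labelled libraries and listed at 0 in both WT libraries (adjusted p = 4.41e-05), values that rested on about 10.9 and 8.29 reads. Hist1h3i was called (1.11), although its values of 2.39 and 3.87 TPM in the Tet2 KO-labelled libraries overlapped 2.54 and 0 TPM in WT. Without WT replicate 2 its difference was 0.20, and without WT replicate 1 it was 2.02. The call was lost without WT replicate 2, without either library labelled Tet2 KO, and with both WT libraries as samples. Hist2h3b (1.11), Hist1h3g (0.58) and Hist1h3a (0.54) did not pass the test. Of 9 tested H3 genes 5 were higher and 0 lower, with a median of 1.06. Without Hist1h3b, which passed only through the Tet2 KO-labelled libraries, 4 of 8 were higher, beside 22.3% of all genes.

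H4 is encoded by many genes for the same protein, of which Hist1h4i gave the most RNA. Hist1h4i was at 26.1 and 43.7 TPM in the Tet2 KO-labelled libraries, against 13.9 and 18.7 TPM in WT (1.02 ± 0.30, adjusted p = 0.0168). Both libraries labelled Tet2 KO were above both WT libraries, but without replicate 2 labelled Tet2 KO the difference was 0.66 and not called. Its call was also lost with quantile normalization and with the plain variance model. Hist1h4h was at 6.58 and 6.98 TPM in the Tet2 KO-labelled libraries, against 1.27 and 0 TPM in WT (2.37 ± 0.30, adjusted p = 1.02e-05). This call was lost with both WT libraries as samples and either library labelled Tet2 KO left out, where its difference was 2.41 and 2.33. Hist1h4m was at 9.09 and 6.77 TPM in the Tet2 KO-labelled libraries, about 23.9 and 17.9 reads, and listed at 0 in both WT libraries (adjusted p = 6.38e-07). Hist1h4j, at 1.04 and 1.23 TPM in the Tet2 KO-labelled libraries, was likewise listed at 0 in WT (adjusted p = 0.00142). Hist1h4d was at 5.77 and 5.47 TPM in the Tet2 KO-labelled libraries, against 3.33 and 3.05 TPM in WT (0.66 ± 0.31, adjusted p = 0.0871). Its status depended on the setting, since it was called with both WT libraries as samples, with ERCC scaling and with the plain variance model. Hist1h4n was at 2.55 and 12.2 TPM in the Tet2 KO-labelled libraries, against 7.56 and 5.07 TPM in WT (-0.07 ± 1.34, adjusted p = 0.973). The libraries labelled Tet2 KO lay on either side of WT for this gene. Hist1h4c (0.67), Hist1h4b (0.18), Hist1h4f (-0.10) and Hist1h4a (-0.44) did not pass the test. Of 10 tested H4 genes 4 were higher and 0 lower, with a median of 0.67. Hist1h4j and Hist1h4m passed the filter only through the Tet2 KO-labelled libraries, and Hist1h4a only through WT. Without these members 2 of 7 H4 genes were higher and 0 lower. Of all genes 22.3% were higher and 26.7% lower, so that the count of higher H4 genes lay near the background. Leaving out Hist1h3b, Hist1h4j and Hist1h4m, the 3 members listed at 0 in both WT libraries, 21 of 47 members were higher and 2 lower, with a median of 0.80.

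The 19 members under the filter were low in each library. Their highest value was 3.53 TPM, of Hist2h4 in replicate 2 labelled Tet2 KO, and 5 of them (Hist1h2aa, Hist1h2al, Hist1h2ba, Hist1h2bf and Hist2h3c1) were listed at 0 in all 4 libraries. Reads behind the members were few. By approximate conversion, the median of the 62 members with a RefSeq span under 1000 nt, tested or not, was 5.88 and 10.4 reads in the Tet2 KO-labelled libraries, against 3.54 and 2.84 reads in WT, and 25 of the 62 had under 10 reads in each library. Over the 44 tested ones the medians were 11.5 and 15.4 reads in the Tet2 KO-labelled libraries, against 7.13 and 3.90 reads in WT, and 8 had under 10 reads in each library.

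Near-identical copies limit how far single genes can be told apart, since the reads were assigned by estimation. Of the 69 members 31 shared over 50% of their 50-nt subsequences with other members and 6 shared none. Hist1h2bq and Hist1h2br had the same value in each library, and they summed to 6.18 and 7.16 TPM in the Tet2 KO-labelled libraries, against 1.90 and 1.14 TPM in WT. Hist1h4m shared 89.8% of its subsequences with Hist1h4n, and the pair summed to 11.6 and 19.0 TPM in the Tet2 KO-labelled libraries, against 7.56 and 5.07 TPM in WT. The zero of Hist1h4m in WT thus stood beside a nonzero copy. Hist1h2ao and Hist1h2ap summed to 133 and 228 TPM in the Tet2 KO-labelled libraries, against 62.6 and 58.4 TPM in WT. Hist2h2aa1 and Hist2h2aa2 summed to 91.1 and 93.8 TPM in the Tet2 KO-labelled libraries, against 27.9 and 29.7 TPM in WT. For these 4 pairs the summed levels kept the groups apart. The copies Hist1h2ad, Hist1h2ah, Hist1h2ai and Hist1h2an summed to 3.49 and 9.90 TPM in the Tet2 KO-labelled libraries, against 4.09 and 2.57 TPM in WT, and overlapped.

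H2A and H2B genes often lie head to head and share an upstream region. With starts within 1000 nt of each other there were 14 such pairs of members, 13 of them an H2A with an H2B gene, with 173 to 660 nt between the starts. Both genes were tested in 8 pairs, of which 3 had both genes higher, 3 had 1 gene higher and 2 had neither called. Among all tested members 48% were higher, beside 22.3% of all genes. Of the 3 pairs with both higher, the pair Hist1h2ap and Hist1h2br and the pair Hist1h2ao and Hist1h2bq were near-identical copies of each other. In these 3 pairs Hist1h2ak, Hist1h2bq and Hist1h2br passed the filter only through the Tet2 KO-labelled libraries. Hist1h2ac and Hist1h2bc, with starts 251 nt apart, were of the mixed kind, with log2 differences of 1.93 (called) and 0.80 (not called) and mean levels of 4.05 and 138 TPM over the 4 libraries. Hist1h2ap and Hist1h2br, with starts 236 nt apart, were both higher (1.50 and 1.31). Hist3h2a faces Hist3h2bb-ps, which did not exceed 0.34 TPM in any library.

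Members were then grouped by where the annotated transcript ends. In 21 members the transcript ended within 100 nt after the stem-loop, and these summed to 273 and 397 TPM in the Tet2 KO-labelled libraries, against 113 and 113 TPM in WT. In 21 others it ran more than 100 nt past the stem-loop, and these summed to 152 and 230 TPM in the Tet2 KO-labelled libraries, against 160 and 171 TPM in WT. The sums of the first class were apart between groups, while those of the second overlapped on the TPM scale. With ERCC scaling, tried for these sums after the data were seen, the second class was apart too, at 198 and 279 in the Tet2 KO-labelled libraries, against 132 and 143 in WT. Of 18 tested members of the first class 11 were higher and 0 lower, with a median log2 difference of 1.13, and of 15 tested of the second class 6 were higher and 2 lower, with a median of 0.66. Without the members that passed the filter through 1 group only, the counts were 8 higher and 0 lower of 14 in the first class, and 5 higher and 2 lower of 14 in the second. The 27 members without the motif summed to 166 and 291 TPM in the Tet2 KO-labelled libraries, against 124 and 117 TPM in WT. Of 17 tested 7 were higher and 0 lower, with a median of 0.80. Leaving out those that passed the filter through 1 group only, 3 of 11 were higher and 0 lower, with a median of 0.71. The share of higher members in this class then lay near the background. Of all genes tested 22.3% were higher and 26.7% lower. The difference between the classes was not tested, and the second class held Hist1h1c, Hist3h2a and Hist3h2ba. A few abundant genes made up much of each sum. The first class held Hist1h2ap and Hist2h2aa1, with the values given above. In the second, Hist1h1c was at 70.9 and 93.1 TPM in the Tet2 KO-labelled libraries, against 86.2 and 87.7 TPM in WT. Among members without the motif, Hist1h2bc was at 127 and 231 TPM in the Tet2 KO-labelled libraries, against 97.9 and 97.5 TPM in WT. Which annotation the authors used was not stated in the sources read, and the classes come from GENCODE.

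**Figure D4:**
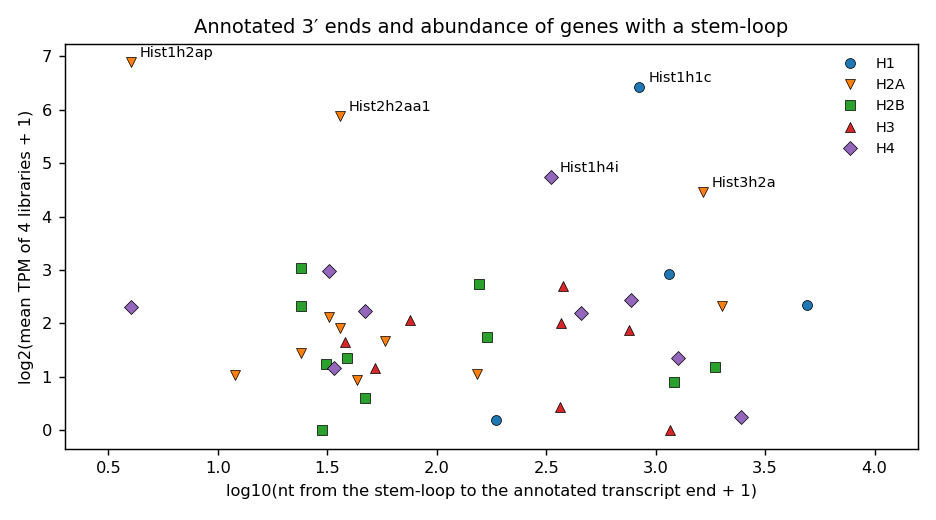
Distance from the stem-loop to the annotated transcript end (log10 of nt + 1, x axis) against mean abundance over the 4 libraries (log2 of TPM + 1, y axis) for the 42 members with the motif, by histone type. Hist1h2ap ends 3 nt after the stem-loop and Hist2h2aa1 35 nt after it, whereas Hist1h1c and Hist3h2a continue for 840 and 1643 nt.

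Other RNAs without a poly(A) tail were examined beside the histones. Of 30 such RNAs on the list 21 were in the table and 13 were tested. Of the 13, 0 were higher and 4 lower, beside 22.3% and 26.7% of all genes. Their median was -0.46, with 5 higher than WT in replicate 1 labelled Tet2 KO and 6 in replicate 2. Rn45s, the ribosomal RNA precursor, was at 1342 and 2984 TPM in the Tet2 KO-labelled libraries, against 9227 and 8942 TPM in WT (-2.18 ± 0.48, adjusted p = 0.00653). Scarna17, a guide RNA of Cajal bodies, was at 155 and 239 TPM in the Tet2 KO-labelled libraries, against 407 and 486 TPM in WT (-1.20 ± 0.27, adjusted p = 0.00321), a call lost without replicate 1 labelled Tet2 KO (-0.90), with ERCC scaling (-0.61) and with quantile normalization (-1.13). Snord22 was also called lower (-0.95), but not without WT replicate 1 (-0.42). Its call was also lost with both WT libraries as samples, with ERCC scaling (-0.39) and with quantile normalization (-0.83). With ERCC scaling 2 of the 13 were higher and 1 lower, beside 41.6% and 12.5% of all genes. The part of poly(A) selection in the histone differences was not tested.

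The libraries labelled Tet2 KO differed from each other in histone RNA. Replicate 2 was above replicate 1 in 38 of the 50 tested members, beside a background of 65.2% of all genes. The median log2 difference of the members from WT was 0.68 in replicate 1 and 1.05 in replicate 2, against -0.17 and -0.06 over all genes. By type, replicates 1 and 2 stood at 0.23 and 1.03 for H1, 0.58 and 1.03 for H2A, 0.57 and 1.25 for H2B, 0.85 and 1.35 for H3, and 0.67 and 0.88 for H4. Each type had a positive median in both libraries. For H4, however, replicate 2 was above replicate 1 in only 5 of 10 tested genes. S phase genes, which act in DNA replication and its control, had medians of 0.10 in replicate 1 and 0.70 in replicate 2, and replicate 2 above replicate 1 in 29 of 29 genes. G2 and mitosis genes had medians of 0.87 and 1.34, and replicate 2 was above replicate 1 in 15 of 15. The neutrophil markers had the reverse order, with replicate 2 above replicate 1 in 0 of 9. These comparisons share the WT libraries, and each is given as its own value.

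**Figure D5:**
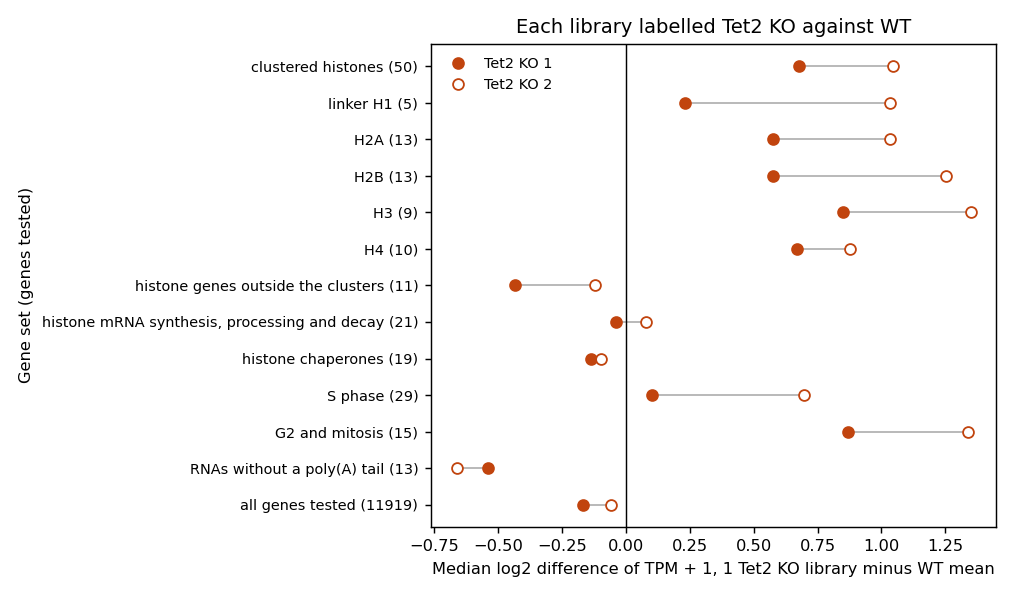
Median log2 difference from the WT mean (log2(TPM + 1) scale, x axis) in each library labelled Tet2 KO (replicate 1 filled, replicate 2 open), for the histone types, the other gene lists and all genes. The median of replicate 2 is above that of replicate 1 for each histone type and for the S phase and mitosis lists.

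Cell cycle genes were also examined. Of 29 S phase genes 9 were higher and 0 lower, with a median of 0.41. Those with the smallest p were Cdt1, a replication licensing factor (87.5 and 91.5 TPM in the Tet2 KO-labelled libraries, against 30.8 and 25.7 TPM in WT, log2 difference 1.63), the kinase Cdk2 (1.52) and the transcription factor E2f1 (1.22). Pcna, the sliding clamp of DNA polymerases, at 319 and 394 TPM in the Tet2 KO-labelled libraries and 318 and 317 TPM in WT, did not pass the test (0.16, adjusted p = 0.606). The S phase median was 0.70 without replicate 1 labelled Tet2 KO and 0.10 without replicate 2, against -0.06 and -0.17 over all genes. With ERCC scaling 21 S phase genes were higher and 0 lower, beside 41.6% and 12.5% of all genes. Of 15 G2 and mitosis genes 13 were higher and 0 lower, with a median of 1.10. They included the cyclins Ccnb2 (1.97) and Ccnb1 (1.66), which drive entry into mitosis, and Cdc20 (1.65), an activator of the anaphase-promoting complex. Without ERCC scaling the background for both lists was 22.3% higher and 26.7% lower. The part of cell cycle state in the histone differences was not tested.

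Genes of histone mRNA metabolism were called in both directions. Of 21 genes of histone mRNA synthesis, processing and decay 3 were higher and 3 lower, with a median of 0.05, beside 22.3% of all genes higher and 26.7% lower. Slbp, which binds the stem-loop, was at 84.6 and 108 TPM in the Tet2 KO-labelled libraries, against 55.4 and 59.6 TPM in WT (0.73 ± 0.21, adjusted p = 0.00873), a call lost with quantile normalization and with the plain variance model. Lsm10, a subunit of the U7 snRNP, was at 90.8 and 82.6 TPM in the Tet2 KO-labelled libraries, against 29.6 and 29.8 TPM in WT (1.51 ± 0.19, adjusted p = 7.19e-06). Both genes stood above WT in both libraries labelled Tet2 KO. Lsm11, the partner of Lsm10 in that particle, was at 4.33 and 6.24 TPM in the Tet2 KO-labelled libraries, against 4.44 and 4.54 TPM in WT (0.18, adjusted p = 0.671). Zfp473, a zinc finger protein of the U7 complex, was at 1.77 and 2.11 TPM in the Tet2 KO-labelled libraries, against 1.06 and 0.97 TPM in WT (0.54, adjusted p = 0.110). Npat, the coactivator of histone genes, was at 10.2 and 12.4 TPM in the Tet2 KO-labelled libraries, against 7.50 and 8.28 TPM in WT (0.46, adjusted p = 0.195). Casp8ap2 (FLASH), which joins the U7 snRNP to the cutting machinery, had a difference of 0.40 (adjusted p = 0.198). For Npat, Casp8ap2 and Zfp473 the groups were apart, and each was called with ERCC scaling and, with both WT libraries as samples, without either library labelled Tet2 KO. Zcchc6, a terminal uridylyltransferase, was higher (0.95, adjusted p = 0.00237). Mif4gd (SLIP1), which links SLBP to translation, was at 58.5 and 73.1 TPM in the Tet2 KO-labelled libraries, against 197 and 191 TPM in WT (-1.55 ± 0.21, adjusted p = 1.47e-05). With ERCC scaling 14 of the 21 were higher and 1 lower, beside 41.6% and 12.5% of all genes, and their median was 0.63, against 0.44 over all genes.

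Histone chaperones and histone genes outside the clusters were read against the same shares of all genes. Of 19 chaperones 3 were higher and 4 lower, with a median of -0.15, beside 22.3% and 26.7% of all genes. With ERCC scaling 9 were higher and 2 lower, beside 41.6% and 12.5% of all genes, so that these counts lay near the background. Daxx, which deposits H3.3, was at 34.6 and 31.9 TPM in the Tet2 KO-labelled libraries, against 265 and 261 TPM in WT (-2.95 ± 0.19, adjusted p = 3.98e-09). Ubn1, a subunit of the HIRA complex, was higher (1.44), and Hat1, which acetylates newly made H4, was lower (-1.13), a call lost with ERCC scaling (-0.55). Of 11 histone genes outside the clusters, whose mRNAs are mostly polyadenylated, 3 were higher and 4 lower, with a median of -0.28. H2afj, an H2A variant, was higher (1.37), whereas H2afy (macroH2A1, -1.59) and the linker histone H1fx (-2.52) were lower. H1f0, the replacement linker histone, was at 49.0 and 74.0 TPM in the Tet2 KO-labelled libraries, against 188 and 181 TPM in WT, and fell by 1.60 on the log2 scale. H2afx, whose transcript carries the stem-loop motif, was at 75.6 and 115 TPM in the Tet2 KO-labelled libraries, against 51.9 and 51.4 TPM in WT (0.84 ± 0.25, adjusted p = 0.0166). H2afz, a variant H2A, was at 603 and 828 TPM in the Tet2 KO-labelled libraries, against 1138 and 1167 TPM in WT (-0.70 ± 0.28, adjusted p = 0.0503), and its groups were apart. With ERCC scaling 5 of the 11 were higher and 3 lower.

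Not all called members held their call under other settings. Of the 26 called members 12 kept it in each alternative that could be run for them, other than the one without a filter on low values, and these were Hist1h2ac, Hist1h2ao, Hist1h2bb, Hist1h2bk, Hist1h2bn, Hist1h2bq, Hist1h2br, Hist1h3b, Hist1h4j, Hist1h4m, Hist2h2aa1 and Hist3h2a. Of these 12, Hist1h2bk, Hist1h2bq, Hist1h2br, Hist1h3b, Hist1h4j and Hist1h4m passed the filter only through the Tet2 KO-labelled libraries. Hist1h2bq and Hist1h2br had the same value in each library. Hist1h4j rested on about 2.97 and 3.54 reads in the Tet2 KO-labelled libraries. For Hist1h2ac, Hist1h4m, Hist2h2aa1 and Hist3h2a all 14 alternatives could be run. The filter of 5 TPM removed the 8 others, and the filter on the mean of all libraries also removed Hist1h4j. Hist2h2aa1 was the only member called higher without a filter.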

How the data were processed

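RNA-seq values were deposited by the authors as TPM for 24589 rows, 92 of them ERCC spike-ins, in 4 libraries. Per the submitters' processing notes, STAR, RSEM and mm10 were used; versions, the annotation and read counts were not given there. Log2(TPM + 1) was tested with limma 3.58.1 (R 4.3.3, trend and robust) in 11919 genes with at least 1 TPM in at least 2 libraries, two-sided, with Benjamini-Hochberg adjustment (threshold 0.05). The WT libraries were averaged on the log scale as 1 sample, which leaves 1 residual degree of freedom, and that sample is taken to vary like the Tet2 KO-labelled libraries. Errors are limma standard errors. The fit was tested on simulated data. The worth of 1 read was estimated from low TPM of genes of 600 to 2500 nt, less 200 nt, of which 72.0% to 79.6% lay within 0.2 of whole reads.

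Members and gene lists were chosen with earlier results of these data known. All tested members were named. Values in each library were given for the 4 most abundant of each type, the 5 largest called changes upward, the members called lower, Tet2 and Rn45s. Each list's 3 genes with the smallest p and the genes acting on histone mRNA were given in part by log2 difference alone. Some markers among them were not given. Other genes were chosen after their values were seen. Ends come from GENCODE vM21, upstream sequence from RefSeq, and coordinates count from 1. Copies shared at least 80% of 50-nt subsequences. Alternatives changed the handling of WT, a replicate block, left-out libraries, pseudocount, filter, scaling and variance model (limma without trend and robust estimation).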

Additional observations from a re-analysis of the deposited data

How the results depend on the processing

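Without a filter on low values, 121 of all genes were higher and 288 lower, and 1 of 64 members was higher (median 0.71) and 2 were lower, Hist1h1t and Hist1h3h. A filter of 5 TPM left 16 members, 8 higher and 1 lower. ERCC scaling gave 4964 higher and 1489 lower genes, 1 lower member, a member median of 1.35 and log2 ratios of 0.65 for the linker and 1.70 for the core sum. Quantile normalization gave 14 higher and 1 lower member, and a pseudocount of 0.1 gave 1 lower member. Of all genes, 20.2% were higher and 20.4% lower with quantile normalization, beside 28% and 2% of the members, and 22.4% and 28.1% with the 5 TPM filter. The linker ratio was 0.87 without Hist1h1c. Leaving out each library in turn gave 2651 to 4321 higher and 3192 to 5674 lower genes, 21 to 31 higher and 2 to 7 lower members, a median of 0.68 to 1.05, and ratios of -0.20 to 0.29 for the linker and 0.75 to 1.41 for the core sum. Without replicate 1 labelled Tet2 KO, Hist1h1c (0.10), Hist1h3d (0.51) and Hist1h4n (0.88) were positive, and without replicate 2 they were -0.29, -0.70 and -1.02. The cause was not tested.

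Same-numbered libraries deviated from their group means with a correlation of -0.01 across 11919 genes. WT replicates varied only 1.17 times as much as read sampling alone would give, so this correlation cannot show whether the numbers pair samples. With both WT libraries as samples 23 members were higher and 2 lower (all genes 3520 and 4517), and with the replicate block 30 and 2 (3495 and 4461). A filter on the mean of all libraries, chosen after seeing the data, gave 20 higher and 2 lower members (40% and 4%, beside 21.0% and 25.2% of all genes). Depth limits the low members, since 25 of 62 short members had under 10 reads in each library by the approximate conversion.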
